A study of Mus musculus with 4 samples.

Results

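The genes for fatty acid uptake, storage and oxidation were followed in mouse gastrocnemius muscle, a calf muscle made mostly of fast fibres. The set was a list of 38 gene names covering uptake and binding, activation, transport into the mitochondrion, β-oxidation, lipid droplets and triglyceride handling, and all 38 were found by name among the 22252 gene names measured. The study asked how glucocorticoid receptor (GR) signaling in muscle bears on obesity, and RNA-seq covered 4 groups of 7-week-old male C57BL/6J mice: lean GRf/f, lean GRmKO, ob/ob GRf/f and ob/ob GRmKO. All 4 groups carried floxed alleles of Nr3c1, the gene of GR, in both copies. GRf/f mice had no Cre, and GRmKO mice carried a Cre driven by the Acta1 promoter, which is active in myofibers, so that the other cells of the muscle kept the gene. Mice called ob/ob were homozygous for the ob mutation of the leptin gene, and lean mice carried no ob allele (Lep+/+). Each group was 1 library made from the pooled RNA of 3 mice, so there was no replicate, the spread between mice was not measured, and no difference below has a test.

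Muscle takes up fatty acids released from circulating lipoproteins by lipoprotein lipase, binds and activates them to acyl-CoA, and either esterifies them into triglyceride droplets or passes them to the mitochondrion through the carnitine shuttle. Inside the mitochondrion, each round of β-oxidation removes acetyl-CoA through a dehydrogenase, a hydratase, a second dehydrogenase and a thiolase, and electrons flow through the electron transfer flavoprotein to ubiquinone. Droplets are coated by perilipins, and their triglyceride is released stepwise by lipases. Glucocorticoids are known to act on lipolysis and on fuel use in muscle and fat.

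The libraries held between 19897754 and 20959781 expected counts, and levels are given as CPM, counts scaled to a common library total. A count of 3 was worth 0.143 to 0.151 CPM. The labels were checked on Nr3c1, which was at 125 CPM in lean GRf/f and 67.0 CPM in lean GRmKO, and at 102 CPM in ob/ob GRf/f and 39.1 CPM in ob/ob GRmKO; these counts span the transcript and not only the deleted exon. Fkbp5, a well-known GR target, was at 88.8 and 106 CPM in the GRf/f libraries and at 22.8 and 26.1 CPM in the GRmKO libraries. All 8 markers of skeletal muscle fibres were detected. Of the markers of other cells, those of endothelium summed to 625, 711, 471 and 429 CPM and those of macrophages to 258, 309, 183 and 115 CPM in lean GRf/f, lean GRmKO, ob/ob GRf/f and ob/ob GRmKO, the order in which the 4 libraries are given throughout, and no marker of any list was at 0. In whole muscle, fewer cells of a type and less RNA per cell cannot be told apart.

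A gene was called higher or lower where its CPM differed at least 1.5-fold (0.585 on the log2 scale) between a pair of libraries, among the 11141 genes that had a mean of at least 50 counts and no library at 0. Of the 38 genes, 37 met this minimum, and Acot1 did not. Brackets give 95% counting intervals, which cover counting error only and not the spread between mice. By this rule, the comparison of ob/ob with lean GRf/f muscle called 2 of the 37 higher and 0 lower, where 5.10% of all genes tested were called higher and 11.4% lower. Between ob/ob and lean GRmKO muscle, 1 was called higher and 0 lower, beside 4.79% and 19.7% of all genes. In GRmKO against GRf/f muscle, 0 were called higher and 2 lower in lean mice, beside 4.88% higher and 3.59% lower of all genes, and 0 higher and 2 lower in ob/ob mice, beside 4.41% and 8.11%. At a 2-fold threshold in CPM only Plin5 was called. It was higher in ob/ob GRf/f than in lean GRf/f muscle and lower in ob/ob GRmKO than in ob/ob GRf/f muscle. Under 4 alternative scalings, Plin5 in the latter comparison was at -0.96 to -0.95, short of 2-fold. Acsl6 in ob/ob against lean GRmKO muscle was at 0.99 in CPM and at 1.07 to 1.21 under these scalings, past 2-fold. The shares of all genes at 2-fold were 1.71% higher and 2.90% lower for ob/ob against lean in GRf/f mice, 1.51% and 6.68% in GRmKO mice, 1.31% and 1.15% for GRmKO against GRf/f in lean mice, and 1.39% and 2.15% in ob/ob mice.

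Most genes of the set thus differed less than 1.5-fold between the libraries. Summed over the 38 genes, the set took 5829 CPM in lean GRf/f, 5573 CPM in lean GRmKO, 6387 CPM in ob/ob GRf/f and 6609 CPM in ob/ob GRmKO muscle. Both ob/ob libraries were above both lean libraries. Per kilobase of the listed transcript, the scale on which genes can be compared with each other, Fabp3 stood first with a mean of 739 CPM per kb over the 4 libraries, followed by Lpl at 183 and Etfb at 129, and Plin5 at 4.28 and Acot1 at 0.668 stood last.

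By sign, more genes of the set were slightly higher than lower in ob/ob muscle in either genotype. In GRf/f mice the counting interval lay above 0 for 17 of the 37 genes, below 0 for 7 and held 0 for 13. In GRmKO mice these counts were 24, 8 and 5. The median log2 change of the 37 genes was 0.09 in GRf/f mice and 0.25 in GRmKO mice, beside -0.11 and -0.20 for the median of all genes tested. With edgeR's TMM scaling, which brings the median of all genes tested to 0.00 and 0.01, the medians of the set were 0.19 and 0.46. In CPM, 23 of 37 (62.2%) were higher in ob/ob in both genotypes, 10 (27.0%) were lower in both and 4 went opposite ways, beside 21.1% higher and 51.5% lower in both among all genes tested. With TMM, 78.4% of the set and 35.5% of all genes tested were higher in both, and 10.8% and 34.4% lower in both. Each of the 4 alternative scalings moved every gene upward in both comparisons, so the 23 above 0 in CPM could not turn. Of the 10 below 0, 4 stayed lower in both under all 5 scalings, Acot13, Pnpla2, Lipe and Dgat1. These 2 comparisons share no library. With TMM, 3 of the 37 were called higher in GRf/f mice and 9 in GRmKO mice and 0 were called lower, where 7.54% and 9.51% of all genes were called higher and 7.95% and 11.5% lower.

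**Figure D1:**
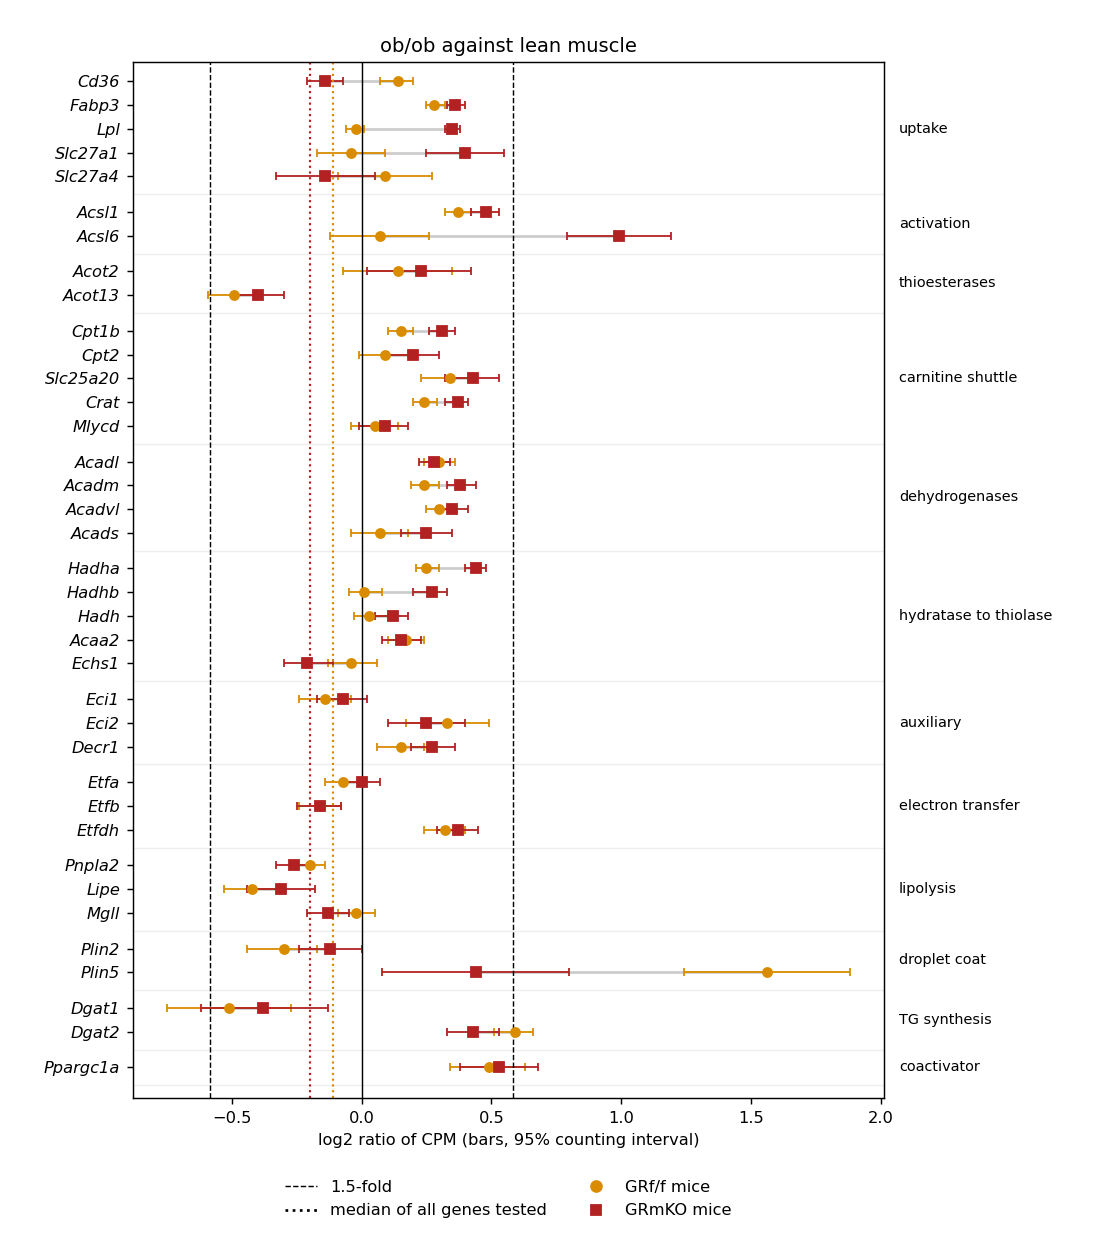
Log2 ratio of CPM in ob/ob against lean muscle for the 37 genes tested, grouped by role, in GRf/f mice (circles) and GRmKO mice (squares). Bars are 95% counting intervals, dashed lines mark 1.5-fold, and dotted lines mark the median of all genes tested (-0.11 and -0.20). Most genes from the carnitine shuttle to the thiolases lie right of 0 in both genotypes. Lipe and Pnpla2 lie left of it, also with TMM, and Mgll lies left of it in CPM but right of it with TMM.

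Oxidation in the mitochondrion accounts for 20 of the genes, in 5 roles, and 16 of these 20 were higher in ob/ob muscle in both genotypes (17 with TMM). Their median log2 change was 0.15 in GRf/f mice and 0.26 in GRmKO mice, and none was called in CPM. With TMM the medians were 0.26 and 0.46, and 3 of the 20 were called higher in GRmKO mice, Slc25a20 (0.63), Acadm (0.59) and Hadha (0.64). Counts of Cpt1b and Etfb are less certain, since each overlaps another annotated coding gene on its strand (Gm44502 and Gm45233). The carnitine shuttle moves acyl groups across the mitochondrial membranes. Its genes, given together with Mlycd as 1 role of 5 genes, all had levels above lean in ob/ob muscle of both genotypes, with counting intervals that included 0 for Mlycd in both and for Cpt2 in GRf/f mice. Slc25a20, the carnitine-acylcarnitine carrier, was at 64.6 CPM in lean GRf/f, 62.5 CPM in lean GRmKO, 81.6 CPM in ob/ob GRf/f and 84 CPM in ob/ob GRmKO muscle, log2 changes of 0.34 [0.23, 0.44] and 0.43 [0.32, 0.53]. Its ob/ob libraries were both above its lean libraries. Crat, which makes acetylcarnitine, differed by 0.24 and 0.37, and Cpt1b, the muscle form of the enzyme that commits long-chain acyl groups to oxidation, by 0.15 and 0.31. Cpt2, which returns the acyl group to CoA inside the mitochondrion, differed by 0.09 and 0.20. Mlycd, which removes malonyl-CoA, the inhibitor of Cpt1b, differed least, by 0.05 [-0.04, 0.14] and 0.09 [-0.01, 0.18].

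The 4 acyl-CoA dehydrogenases, which carry out the first step of each round for chains of different length, were also all higher in ob/ob in both genotypes. Acadm, the medium-chain enzyme, was at 230 and 219 CPM in the lean and at 272 and 286 CPM in the ob/ob libraries, changes of 0.24 [0.19, 0.30] in GRf/f mice and 0.38 [0.33, 0.44] in GRmKO mice. Acadl (long-chain) differed by 0.30 and 0.28 and Acadvl (very-long-chain) by 0.30 and 0.35. Acads, the short-chain enzyme, differed by 0.07 [-0.04, 0.18] and 0.25 [0.15, 0.35], and the interval in GRf/f mice included 0.

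Hadha and Hadhb encode the α and β subunits of the mitochondrial trifunctional protein, which carries the last 3 activities of the round for long chains. Their genes lie head to head on mouse chromosome 5, with RefSeq start sites 273 bases apart in GRCm38.p6. The 300-base window from 250 bases before to 50 after the start of Hadhb (chr5:30155003-30155302, plus strand) is shown here because the pair shares it: the capitals mark the 228 bases that also belong to the window of Hadha on the opposite strand.
Hadhb: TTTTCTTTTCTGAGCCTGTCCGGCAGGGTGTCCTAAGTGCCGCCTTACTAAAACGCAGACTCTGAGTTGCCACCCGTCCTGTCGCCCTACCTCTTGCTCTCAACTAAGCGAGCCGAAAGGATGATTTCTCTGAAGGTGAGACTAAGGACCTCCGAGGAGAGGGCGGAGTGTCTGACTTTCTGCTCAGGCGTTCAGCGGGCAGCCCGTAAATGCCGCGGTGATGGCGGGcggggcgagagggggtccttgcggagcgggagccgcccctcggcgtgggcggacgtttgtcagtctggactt
Hadha was at 351, 359, 418 and 487 CPM and Hadhb at 185, 182, 186 and 220 CPM in the 4 libraries. Either gene was highest in ob/ob GRmKO muscle. In ob/ob against lean muscle Hadha differed by 0.25 [0.21, 0.30] in GRf/f mice, where Hadhb stayed at 0.01 [-0.05, 0.08], and the pair differed by 0.44 and 0.27 in GRmKO mice. Both subunits were higher in GRmKO than in GRf/f muscle of ob/ob mice, by 0.22 and 0.24, and close to level in lean mice (0.03 and -0.02; with TMM both were below 0).

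The other enzymes of the round were less alike. Acaa2, a thiolase, was higher by 0.17 and 0.15 in ob/ob muscle, and Hadh, the short-chain hydroxyacyl-CoA dehydrogenase, by 0.03 [-0.03, 0.10] and 0.12 [0.05, 0.18]. Echs1, the short-chain hydratase, was lower by -0.04 and -0.21 (above 0 in GRf/f mice with TMM, and at 0.08 and 0.01 with DESeq2 size factors). Of the auxiliary enzymes that reposition double bonds of unsaturated chains, Decr1 was higher by 0.15 and 0.27 and Eci2 by 0.33 and 0.25, while Eci1 was at -0.14 and -0.07 (0.13 in GRmKO mice with TMM). Sequence shared with Eci3 makes up 15.0% of the 31-base words of Eci2, so its counts could be split between the genes. The electron transfer flavoprotein subunits did not follow Etfdh, the ubiquinone oxidoreductase they feed. Etfdh was higher by 0.32 [0.24, 0.40] and 0.37 [0.29, 0.45], whereas Etfa was at -0.07 and -0.00 and Etfb at -0.16 in either genotype, and the sign of Etfa in both and of Etfb in GRmKO mice turned with TMM.

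The tricarboxylic acid cycle, which burns the acetyl-CoA made by β-oxidation, is given for comparison. Of its 18 genes, 0 were called in ob/ob against lean muscle, and their medians were 0.05 in GRf/f and 0.01 in GRmKO mice, below the medians of 0.15 and 0.26 of the 20 oxidation genes. With TMM the medians of the cycle were 0.16 and 0.21, with 0 and 2 called higher. Other genes of mitochondrial fatty acid oxidation outside the set had medians of -0.13 and -0.15 over 17 genes, with 0 called in GRf/f mice and 3 called lower in GRmKO mice, where 19.7% of all genes were called lower. With TMM these medians were -0.02 and 0.05. Markers of oxidative fibres were counted in the same comparisons. All 9 slow fibre markers were called higher in ob/ob muscle in each genotype, beside 5.10% and 4.79% of all genes tested. They summed to 519, 692, 1152 and 1646 CPM. The markers of type IIa and IIx fibres, Myh2 and Myh1, were also both called higher and summed to 1568, 1334, 2974 and 3205 CPM, while the 4 type IIb markers summed to 45593, 43939, 50286 and 61168 CPM. The part of fibre makeup in the levels of the oxidation genes was not tested.

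Ppargc1a, a transcriptional coactivator of mitochondrial and oxidative genes, had the largest change on the higher side among the genes not called, in either genotype. It was at 31.6 CPM in lean GRf/f, 29.5 CPM in lean GRmKO, 44.2 CPM in ob/ob GRf/f and 42.6 CPM in ob/ob GRmKO muscle. The ob/ob libraries were above the lean ones and the genotypes were nearly level within each. The changes with obesity were 0.49 [0.34, 0.63] and 0.53 [0.38, 0.68], and with TMM they were 0.59 and 0.74, past 1.5-fold. Acsl1, the main acyl-CoA synthetase of muscle and heart, was at 262 and 230 CPM in lean and at 339 and 320 CPM in ob/ob muscle. It differed by 0.37 in GRf/f and 0.48 in GRmKO mice.

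Positions of the 5 genes called in any comparison are, in GRCm38, chr17:56111601-56117596 for Plin5, chr7:99153658-99182719 for Dgat2 and chr7:25379527-25398710 for Lipe, all on the minus strand, and chr11:54303798-54364756 for Acsl6 and chr8:71568882-71587302 for Slc27a1, on the plus strand.

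Plin5, a perilipin that coats droplets next to mitochondria in oxidative tissues, had the largest change of the set. Its levels were 5.24 CPM in lean GRf/f, 5.67 CPM in lean GRmKO, 15.4 CPM in ob/ob GRf/f and 7.69 CPM in ob/ob GRmKO muscle, from 109, 113, 323 and 161 counts. The ob/ob GRf/f library stood alone, at 2.94-fold the lean GRf/f level, a log2 change of 1.56 [1.24, 1.88]. In GRmKO mice the change with obesity was 0.44 [0.08, 0.80], and 0.65 with TMM, past 1.5-fold, so that the gene was then called higher in both genotypes. In CPM the difference between the changes was -1.12 [-1.58, -0.65] in counting error. Within ob/ob mice the GRmKO level was called lower than the GRf/f level, with a log2 interval of -1.29 to -0.73. In CPM this call held also at the 2-fold threshold. Under the 4 alternative scalings the change was -0.96 to -0.95, past 1.5-fold but short of 2-fold. Within lean mice GRmKO was at 0.11 [-0.28, 0.51] against GRf/f. At 4.28 CPM per kb on average, Plin5 was one of the least abundant genes of the set. Plin2, the perilipin found on droplets of most cells, did not share this pattern, with 49.6, 55.4, 40.2 and 51 CPM.

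The windows of Plin5 and of Acsl6 are shown because these are the genes whose change with obesity differed most between the genotypes. Both are RefSeq windows of GRCm38.p6 from 250 bases before to 50 after the start, at chr17:56117499-56117798 on the minus strand for Plin5 and chr11:54303574-54303873 on the plus strand for Acsl6, each the most upstream window of its gene. Capitals mark AGGTCA on either strand, the hexamer bound by many nuclear receptors other than GR.
Plin5: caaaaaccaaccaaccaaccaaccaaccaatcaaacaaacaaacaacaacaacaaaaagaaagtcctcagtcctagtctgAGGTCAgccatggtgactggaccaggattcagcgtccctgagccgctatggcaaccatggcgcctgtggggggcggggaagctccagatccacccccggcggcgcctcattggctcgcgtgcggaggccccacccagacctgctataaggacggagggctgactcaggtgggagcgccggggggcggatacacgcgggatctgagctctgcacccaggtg
Acsl6: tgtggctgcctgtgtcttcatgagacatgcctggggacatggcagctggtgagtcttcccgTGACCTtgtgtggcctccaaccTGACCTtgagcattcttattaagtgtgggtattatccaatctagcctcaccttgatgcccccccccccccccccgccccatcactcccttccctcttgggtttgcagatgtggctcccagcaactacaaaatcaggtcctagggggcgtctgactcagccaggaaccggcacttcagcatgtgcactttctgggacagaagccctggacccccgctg
The match in Plin5 lies 170 bases before the start, and those in Acsl6 lie 189 and 167 bases before it. Windows were found for 30 of the 38 genes, 38 windows in all. AGGTCA was in 8 of these 38, from 7 genes (Acadm, Acadvl, Acsl6, Cd36, Echs1, Plin2 and Plin5), and in 16.3% of all 32851 windows. The longer TNAAGGTCA, the element of estrogen-related receptors, overlaps AGGTCA. It was in a window of Acsl6 alone among the set and in 1.28% of all windows. The direct repeat AGGNCANAGGNCA, bound by PPAR with RXR, was in 0 of the 38 and in 0.381% of all windows, and the GR palindrome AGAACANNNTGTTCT was in 0 and in 0.00913%. These are matches of letters in short windows, searched on both strands, and no binding was measured.

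Acsl6, an acyl-CoA synthetase known mostly from brain and muscle, was at 21.3 CPM in lean GRf/f, 15.7 CPM in lean GRmKO, 22.5 CPM in ob/ob GRf/f and 31.3 CPM in ob/ob GRmKO muscle. The GRmKO libraries held its lowest and its highest level. Its change with obesity was 0.99 [0.79, 1.19] in GRmKO mice and 0.07 [-0.12, 0.26] in GRf/f mice, a difference of 0.92 [0.65, 1.19]. Against GRf/f, GRmKO was at -0.44 when lean and at 0.48 when ob/ob. Slc27a1, a fatty acid transport protein of muscle, was likewise lowest in lean GRmKO muscle, at 31.8 CPM, beside 47.9, 46.5 and 42.1 CPM in lean GRf/f, ob/ob GRf/f and ob/ob GRmKO muscle. It was called lower in lean GRmKO against lean GRf/f muscle, at -0.59 [-0.73, -0.44], and was at -0.14 [-0.28, -0.01] in ob/ob mice.

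**Figure D2:**
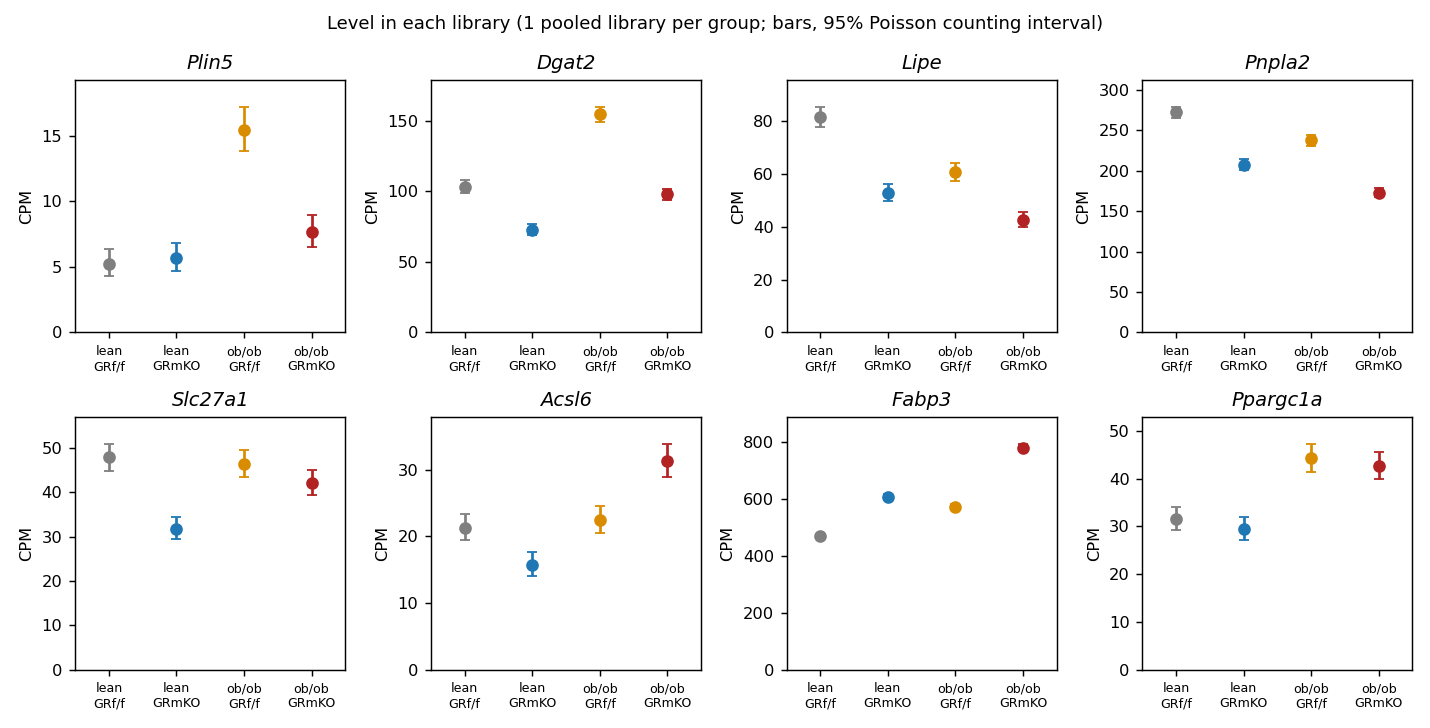
CPM of 8 genes in the 4 libraries, each axis starting at 0; bars are 95% Poisson counting intervals, and each point is 1 pooled library. Plin5 stands at 15.4 CPM in ob/ob GRf/f muscle only, Dgat2, Lipe and Pnpla2 are lower in GRmKO than in GRf/f muscle of both lean and ob/ob mice, and Fabp3 is higher in GRmKO in both.

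The lipolysis genes (Lipe, Pnpla2 and Mgll) and Dgat2 were lower in GRmKO than in GRf/f muscle, whether the mice were lean or ob/ob. The 3 lipolysis genes were lower in GRmKO in both backgrounds under all 5 scalings, with medians of -0.39 (lean) and -0.46 (ob/ob), beside 0.04 and -0.04 for all genes tested. Lipe, hormone-sensitive lipase, was at 81.6 CPM in lean GRf/f, 52.9 CPM in lean GRmKO, 60.8 CPM in ob/ob GRf/f and 42.6 CPM in ob/ob GRmKO muscle. It was called lower in lean mice, at -0.62 [-0.74, -0.51], and stood at -0.51 [-0.64, -0.39] in the ob/ob pair, short of the threshold. Its ob/ob libraries were also below the lean libraries of the same genotype, by -0.42 in GRf/f and -0.31 in GRmKO mice (-0.32 and -0.11 with TMM). Pnpla2, which encodes adipose triglyceride lipase, the enzyme of the first lipolytic step, was at 272, 207, 238 and 173 CPM. Its GRmKO libraries were below both GRf/f libraries, by -0.39 [-0.45, -0.33] against lean GRf/f and -0.46 [-0.52, -0.40] against ob/ob GRf/f. Against lean muscle its ob/ob levels were at -0.20 and -0.26 (-0.09 and -0.06 with TMM). Mgll, which splits monoglycerides, was at -0.11 and -0.22 in GRmKO against GRf/f, and with obesity at -0.02 and -0.13, both above 0 with TMM (0.09 and 0.07).

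Dgat2 and Dgat1 both catalyse the last step of triglyceride synthesis and stood on opposite sides with obesity. Dgat2 was at 103 CPM in lean GRf/f, 72.9 CPM in lean GRmKO, 155 CPM in ob/ob GRf/f and 98.1 CPM in ob/ob GRmKO muscle. It was higher in ob/ob by 0.59 [0.51, 0.66] in GRf/f mice, just past the threshold, and by 0.43 [0.33, 0.53] in GRmKO mice, which with TMM was 0.63 and also called. Against GRf/f, GRmKO was at -0.50 [-0.60, -0.40] among lean mice and at -0.66 [-0.74, -0.58] among ob/ob mice, the latter called. The ob/ob GRmKO level was thus close to that of lean GRf/f muscle. Dgat1 was at 16.3, 15.8, 11.4 and 12.2 CPM, lower in ob/ob by -0.51 and -0.38 (-0.41 and -0.17 with TMM) and within counting error of level between genotypes (-0.04 [-0.26, 0.19] and 0.10 [-0.16, 0.36]).

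Other genes of storage and droplets outside the set were counted in the same comparisons. Of 21 tested, 6 were called lower in GRmKO in lean mice and 6 in ob/ob mice, 5 of them in both. Of all genes tested, 3.59% and 8.11% were called lower. Of the 21, 0 and 1 were called higher, beside 4.88% and 4.41% of all genes tested. The medians of the 21 were -0.15 and -0.05. Cidec, a droplet fusion protein of adipocytes, was at 70.4, 26.9, 50.7 and 18.3 CPM, changes of -1.39 and -1.47. Plin1, the perilipin of adipocytes, was at -0.85 and -0.81, Plin3 at -0.61 and -1.61, and Pnpla3 at -0.66 and -0.96. Lpin1, a phosphatidate phosphatase named after its values were seen, was at -0.61 and -0.82.

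Markers of adipocytes were lower in the same libraries. Of 10 markers, 8 were called lower in GRmKO in lean mice and 7 in ob/ob mice, beside 3.59% and 8.11% of all genes tested. In ob/ob mice 1 (Car3) was called higher, beside 4.41% of all genes tested. Adipoq was at 81.4 CPM in lean GRf/f and 48.3 CPM in lean GRmKO, and at 80.4 and 44.4 CPM in the ob/ob libraries. The sum of the 10 was 4545, 5009, 3920 and 6066 CPM and was carried by Car3, also a muscle gene, at 3490, 4333, 3329 and 5700 CPM. Plin1, Cidec and Fabp4 are on this list too. In CPM, 4 of the 10 markers were called lower in ob/ob against lean muscle and 1, Lep, higher in each genotype. Of all genes tested, 11.4% and 19.7% were called lower and 5.10% and 4.79% higher in GRf/f and GRmKO mice. The medians of the markers were -0.50 in GRf/f and -0.52 in GRmKO mice. Of the 4 called lower, Fabp4 was not called in GRf/f mice with TMM. Retn was at -1.16 and -1.03, Cfd at -4.21 and -4.02, and Pck1 at -1.90 and -1.84. The part of fat tissue within the muscle in the levels of the lipolysis genes and of Dgat2, between genotypes or with obesity, was not tested.

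**Figure D3:**
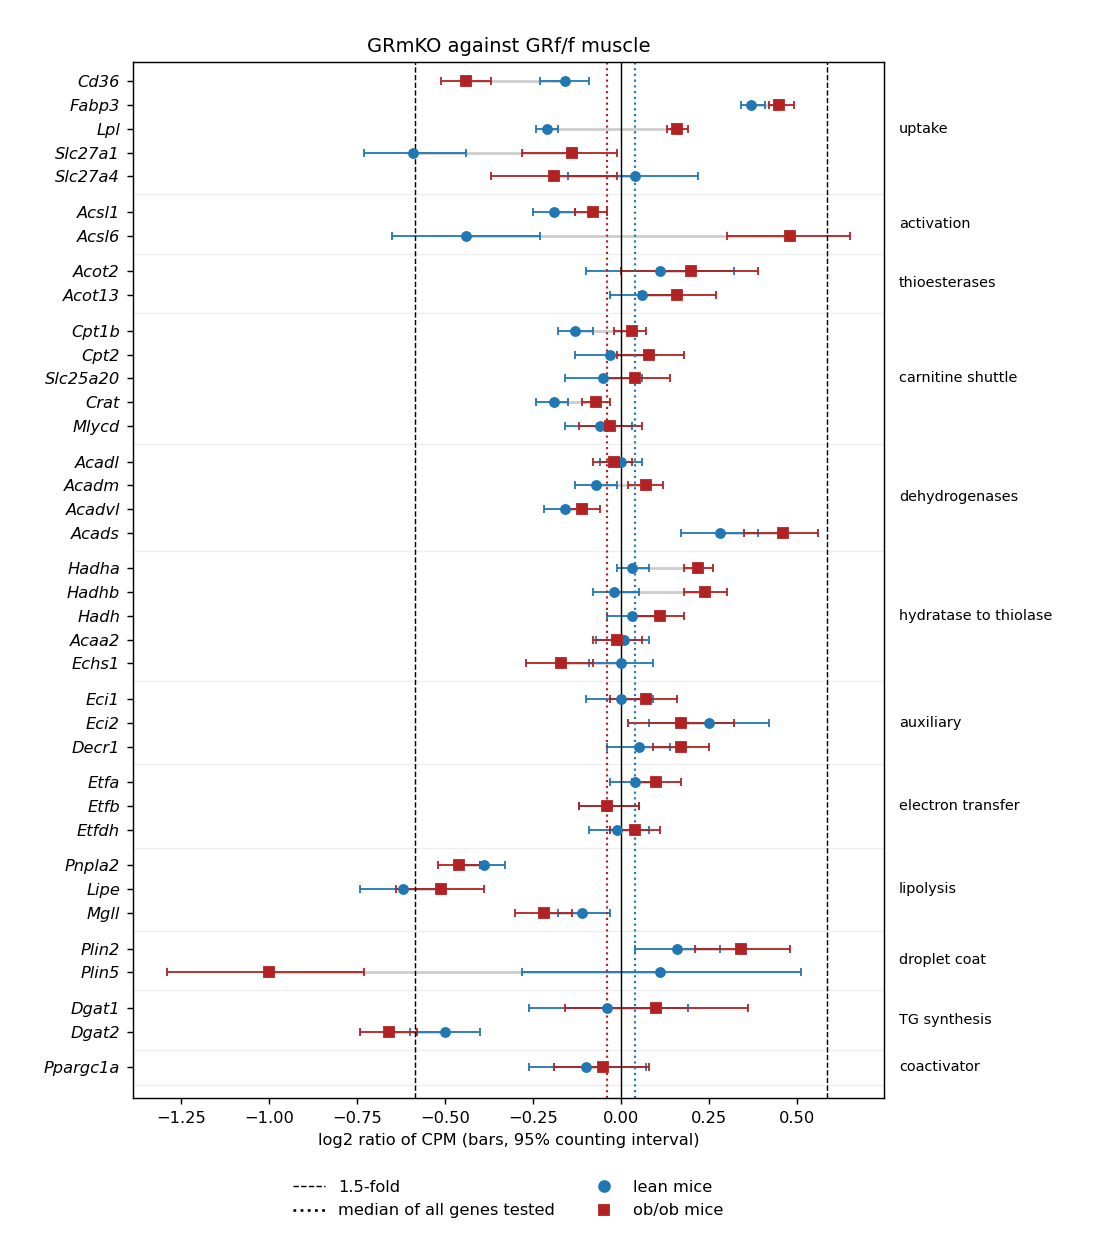
Log2 ratio of CPM in GRmKO against GRf/f muscle for the 37 genes tested, grouped by role, in lean mice (circles) and ob/ob mice (squares). Bars are 95% counting intervals, dashed lines mark 1.5-fold, and dotted lines mark the median of all genes tested (0.04 and -0.04). The lipolysis genes (Lipe, Pnpla2 and Mgll) and Dgat2 lie left of 0 and Fabp3 and Acads right of it in both backgrounds. Most oxidation genes lie close to 0.

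For the set as a whole the genotype comparisons had no common direction. The median log2 change in GRmKO was -0.03 for the lean pair and 0.04 for the ob/ob pair, and 10 of 37 genes were higher in both backgrounds, 14 lower in both and 13 opposite, or 27.0% higher and 37.8% lower in both, beside 27.7% and 25.9% of all genes tested. With TMM the split was 6, 12 and 19, or 16.2% higher and 32.4% lower in both, beside 25.6% and 27.6% of all genes tested. By sign alone, 6 stayed higher in both under all 5 scalings (Acads, Eci2, Fabp3, Acot2, Acot13 and Plin2). By the same rule 11 stayed lower in both (Crat, Acadvl, Echs1, Acsl1, Cd36, Slc27a1, Pnpla2, Lipe, Mgll, Dgat2 and Ppargc1a). Some of these genes were within counting error of level. For the lean pair the interval included 0 for Acot2 (0.11 [-0.10, 0.32]), Acot13 (0.06 [-0.03, 0.16]), Echs1 (-0.00 [-0.09, 0.09]) and Ppargc1a (-0.10 [-0.26, 0.07]). The interval of Ppargc1a also included 0 for the ob/ob pair (-0.05 [-0.19, 0.08]). The 20 oxidation genes had medians of -0.01 and 0.05. With TMM the counts of called genes were the same, 0 higher and 2 lower in each background, where 3.99% of all genes were called higher and 4.23% lower in lean mice and 5.08% and 6.90% in ob/ob mice.

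Fabp3, the fatty acid binding protein of heart and muscle, had the largest genotype change on the higher side in lean mice. In ob/ob mice it came just after Acsl6 (0.48) and Acads (0.46). It was at 470 CPM in lean GRf/f, 609 CPM in lean GRmKO, 572 CPM in ob/ob GRf/f and 782 CPM in ob/ob GRmKO muscle. Both the genotype and obesity went with more, by 0.37 [0.34, 0.41] and 0.45 [0.42, 0.49] for GRmKO against GRf/f (lean, then ob/ob), and by 0.28 and 0.36 for ob/ob in GRf/f and GRmKO mice. None of these reached 1.5-fold. Acads was at 59, 71.7, 62 and 85.1 CPM, higher in GRmKO by 0.28 [0.17, 0.39] among lean mice and by 0.46 [0.35, 0.56] among ob/ob mice, unlike the other acyl-CoA dehydrogenases, which lay between -0.16 and 0.07. Slow fibre markers were higher in GRmKO as well, with medians of 0.43 and 0.50. Of the 9, 3 and 4 were called higher, beside 4.88% and 4.41% of all genes tested. The part of slow fibres in these levels was not tested.

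The remaining uptake genes shared no direction. Cd36, a fatty acid translocase of myofibers, endothelium and adipocytes, was at 171, 153, 189 and 139 CPM and was lowest in ob/ob GRmKO muscle, at -0.44 [-0.51, -0.37] against ob/ob GRf/f. In that comparison 4 of 6 macrophage markers and 7 of 10 adipocyte markers were called lower, beside 8.11% of all genes tested. Of 8 endothelial markers 0 were called. The part of these cells in the level of Cd36 was not tested. Lpl, which releases fatty acids from lipoproteins, was at 764, 660, 751 and 841 CPM. It was the other way round, highest in ob/ob GRmKO muscle, where it was 0.35 [0.32, 0.38] above lean GRmKO. Slc27a4, another transport protein, lay between 22.4 and 25.6 CPM. Among other genes of uptake, binding and activation, 2 of 18 were called lower and 0 higher in ob/ob against lean GRf/f muscle. In GRmKO muscle 6 were called lower and 1 higher. Of all genes tested, 11.4% and 19.7% were called lower and 5.10% and 4.79% higher. The list had medians of -0.20 in both genotypes (-0.10 and 0.01 with TMM, with 1 and 3 called lower and 1 and 2 higher). The 1 called higher in CPM was Acsf3 (0.60), named after its values were seen. Gpihbp1, which holds Lpl on capillary endothelium, was at 68.8 and 69 CPM in the lean and 40.6 and 35.1 CPM in the ob/ob libraries, changes of -0.76 and -0.97. Fabp4, of endothelium and adipocytes, changed by -0.65 and -0.82, and with TMM it was no longer called in GRf/f mice. In CPM, endothelial markers were called lower in ob/ob muscle, 2 of 8 in GRf/f and 8 of 8 in GRmKO mice, beside 11.4% and 19.7% of all genes. With TMM fewer passed in each genotype, as it moves the median of all genes tested from -0.11 to 0.00 and from -0.20 to 0.01. The 2 called in GRf/f mice, Emcn (-0.66) and Esam (-0.65), then fell short of the threshold. The part of endothelial cells in the levels of Gpihbp1 and Fabp4 was not tested.

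The thioesterases, which release free fatty acid from acyl-CoA, close the set. Acot13 was at 87, 90.8, 61.9 and 69 CPM and was lower in ob/ob muscle by -0.49 [-0.59, -0.39] and -0.40 [-0.50, -0.30], or -0.38 and -0.19 with TMM. Acot2, a mitochondrial form, lay between 17.4 and 22 CPM. Acot1, the cytosolic form, was at 1.78, 1.63, 1.7 and 0.955 CPM, below the minimum mean. Acot1 shares 40.1% of its 31-base words with other genes, most with Acot2, which shares 37.3%, so the authors' counts could be split between this pair, and neither level is certain.

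**Figure D4:**
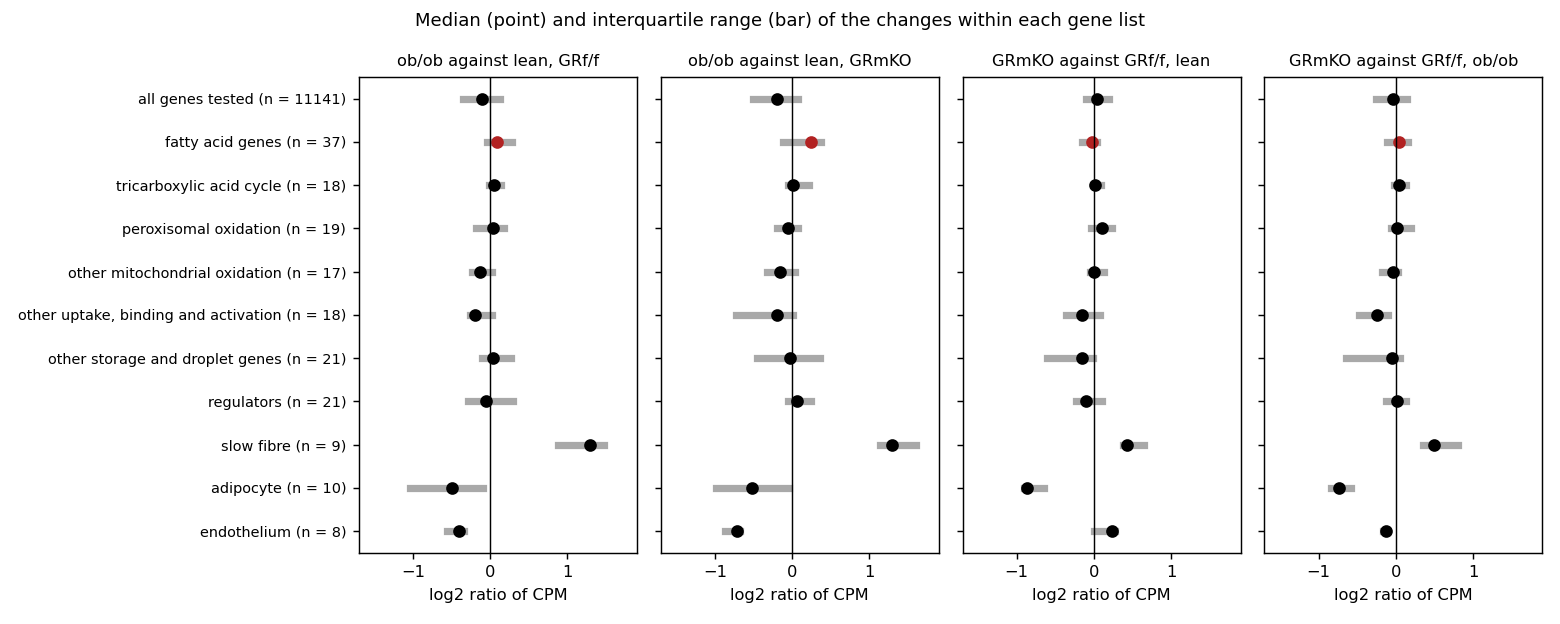
Median (point) and interquartile range (bar) of the log2 ratio of CPM within gene lists, in the 4 comparisons, with the number of genes tested in each list. The fatty acid genes sit at 0.09 and 0.25 in the obesity comparisons, right of all genes tested at -0.11 and -0.20, and slow fibre markers lie farther right at 1.29 in both.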

How the data were processed

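RNA-seq of gastrocnemius muscle was analysed in 4 libraries, 1 per group, each of pooled RNA from 3 mice. The authors sequenced 100-bp paired-end reads, estimated the abundance of GENCODE transcripts of protein-coding genes by Salmon (version 1.2.1) and summed them to genes with tximport (lengthScaledTPM) in R v3.5.0, keeping the entry with the largest total of duplicated names, on mm10. The deposited values are expected counts, not normalized between libraries. This scaling folds in transcript length, and reads shared by near-identical genes are split by an estimate.

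Counts were divided by the library total to give CPM (Python 3.11.15, numpy 2.4.6, pandas 2.3.3), without rounding or an added count. Poisson and Clopper-Pearson intervals (scipy 1.17.1) used rounded counts and were tested on simulated data. With 1 library per group, no test was run, and the study's own method of calling genes, which models technical replicates, was not used. Genes were called at 1.5-fold. All 38 genes were to be named; of the pathway lists, at most 4 per list called the same way in both comparisons of a kind. Scaling factors came from edgeR 4.0.16 (TMM) and DESeq2 1.42.0 in R 4.3.3, and from upper quartiles. Promoter windows came from RefSeq (GRCm38.p6) and shared 31-base words from a later GENCODE release on GRCm38. The alternatives were these scalings, library size without the 50 most abundant genes, other filters, 0.5 added counts, and a 2-fold threshold. The genes of the set, the other lists and the threshold were chosen with earlier results of these data known.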

Additional observations from a re-analysis of the deposited data

Results flagged for a closer look

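For 3 genes of the set the genotype difference had opposite signs in lean and ob/ob mice with each counting interval clear of 0. With 1 library per group this difference was not tested. The change in GRmKO was -0.44 in lean and 0.48 in ob/ob mice for Acsl6, a difference of 0.92 on the log2 scale (-0.50 and 0.52 with TMM). It was -0.21 and 0.16 for Lpl, a difference of 0.37, and -0.07 and 0.07 for Acadm, a difference of 0.14. With TMM the changes were -0.27 and 0.20 for Lpl and -0.13 and 0.11 for Acadm. TMM moved every gene down in the lean comparison and up in the ob/ob comparison, so it could not turn these signs.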

How the results depend on the processing

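No median log2 change of the whole set changed sign under the alternatives. The 4 alternative scalings could not have turned one, since each moved every gene toward the side where the CPM median already lay. Medians of some other lists changed sign with TMM in ob/ob against lean GRmKO muscle, as given with those lists. In that comparison, the median of the set's 7 genes of lipolysis, droplet coats and triglyceride synthesis also turned, from -0.13 to 0.07. In ob/ob against lean GRmKO muscle, 9 genes of the set were called higher with TMM and 9 with DESeq2 size factors, 3 with the upper quartile and 2 without the 50 most abundant genes, in place of 1. Of all genes tested, 9.51%, 9.83%, 7.71% and 6.30% were called higher under these scalings in turn. The median of the set was 0.46, 0.47 and 0.39 with TMM, DESeq2 and the upper quartile, in place of 0.25. In GRf/f mice the median was 0.19 with TMM and 0.21 with DESeq2, in place of 0.09. These scalings differ from CPM by 1 factor per library. Without a minimum mean, or with no filter and 0.5 counts added, 1 gene, Acot1, was called lower in ob/ob GRmKO against lean GRmKO muscle, and also against ob/ob GRf/f muscle, where 3 genes were then called lower in place of 2. Of all 14206 genes without the minimum mean, 23.9% and 12.2% were called lower in these comparisons, and of all 22252 with no filter, 21.4% and 12.2%. At 2-fold in CPM, 1 gene was called higher in ob/ob GRf/f and 0 in ob/ob GRmKO against lean muscle. In GRmKO against GRf/f, 0 were called lower in lean mice and 1 in ob/ob mice. These counts depend on the scaling. Under the 4 alternatives to CPM, Plin5 in ob/ob mice fell short of 2-fold (-0.96 to -0.95). Acsl6 in ob/ob against lean GRmKO muscle then passed it (1.07 to 1.21). Single genes near 0 changed sign with TMM, 5 and 7 of 37 in the obesity comparisons and 6 and 4 in the genotype comparisons. No paired analysis was possible because each group is 1 library, and for the same reason no library could be left out. Among the 37 genes tested, the median half-width of the counting interval was between 0.080 and 0.090 on the log2 scale, and up to 0.395 for Plin5. Acot1, not tested, had wider intervals. The spread between mice is not in any of them.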

Other observations

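Oxidation in the peroxisome, which shortens very-long-chain and branched fatty acids, was covered by 19 genes tested. Their medians were 0.03 and -0.05 in ob/ob against lean muscle of GRf/f and GRmKO mice. With TMM these medians were 0.13 and 0.15. Of the 19, 1 was called higher and 2 lower in GRf/f mice, beside 5.10% and 11.4% of all genes tested. In GRmKO mice 0 were called higher and 1 lower, beside 4.79% and 19.7%. Acot4 (0.61) and Acot8 (-0.70), named after their values were seen, were called in GRf/f mice and were at 0.07 and -0.05 in GRmKO mice. Hacl1, which acts in the oxidation of branched fatty acids, was called lower in ob/ob muscle in both genotypes, at 5.22 and 7.41 CPM in the lean and 2.77 and 3.67 CPM in the ob/ob libraries (-0.91 and -1.01). In GRmKO against GRf/f muscle 0 of the 19 were called in lean or in ob/ob mice, with medians of 0.11 and 0.02. Of all genes tested, 4.88% and 4.41% were called higher and 3.59% and 8.11% lower in lean and ob/ob mice.

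Of 21 regulators of fatty acid metabolism, transcription factors and coregulators with kinases and deacetylases, 1 was called higher and 2 lower in ob/ob against lean GRf/f muscle. In GRmKO muscle 1 was called higher and 1 lower. Of all genes tested, 5.10% and 4.79% were called higher and 11.4% and 19.7% lower in GRf/f and GRmKO mice. With TMM 1 and 3 were called higher and 0 lower, beside 7.54% and 9.51% higher and 7.95% and 11.5% lower. Sirt1, a deacetylase that acts on Ppargc1a, was called lower in both in CPM but not with TMM, at 10.3 and 12.6 CPM in the lean and 6.8 and 7.67 CPM in the ob/ob libraries (-0.61 and -0.71). In GRmKO against GRf/f muscle, 0 regulators were called higher and 2 lower in lean mice and 1 higher and 1 lower in ob/ob mice. The shares of all genes tested were 4.88% higher and 3.59% lower in lean mice and 4.41% and 8.11% in ob/ob mice. Idh2, the mitochondrial NADP-dependent isocitrate dehydrogenase, was the only gene of 18 on the tricarboxylic acid cycle list called in any of the 4 comparisons in CPM, higher in GRmKO in ob/ob mice by 0.70, and was picked out after its values were seen. Cpt1c, likewise picked out afterwards, was at 3.72, 4.63 and 3.80 CPM in lean GRf/f, lean GRmKO and ob/ob GRf/f and at 0.569 CPM in ob/ob GRmKO muscle. Markers of erythroid cells summed to 2229, 2127, 970 and 872 CPM and those of fibroblasts to 3989, 4427, 6986 and 4050 CPM in the 4 libraries. The fibroblast sum in ob/ob GRf/f muscle was carried by Col1a1, at 1279, 1264, 4108 and 2277 CPM, while Dcn was at 1247, 1343, 882 and 634 CPM.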
